A study of Mus musculus with 8 samples.

Results

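Long intergenic noncoding RNAs (lincRNAs) expressed in cultured mouse hepatocytes were described in Lcmr1 (Med19) knockout (KO) cells and in control cells. Lcmr1 is a subunit of the Mediator complex, and its RNA was lower but still present in the KO libraries. The RNA count table lists 27277 genes, of which 1868 carry the biotype lincRNA and 0 the biotype lncRNA. A lincRNA was counted as expressed where its CPM (counts scaled to the total of the library's column) reached 2 or more in at least 3 of the 6 RNA libraries, which left 137 genes. The members were thus chosen by their measured CPM, so the levels themselves are a description. The third-highest CPM was 2.04 for 4930480K23Rik, 2.06 for 1110019D14Rik and 2.08 for Jpx, the members nearest to the limit. Just below it stood 1700001L05Rik at 1.97, A430110L20Rik at 1.96 and Gm26719 at 1.94. A further 207 noncoding genes of other biotypes (antisense RNA, processed transcript and the like, among them Gas5 and Tug1) met the same CPM rule and are not members.

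Long noncoding RNAs are transcripts of RNA polymerase II, usually capped and often spliced, that do not code for a known protein. Some act in the nucleus, as Malat1 does in nuclear speckles and Neat1 in paraspeckles, some are precursors of small nucleolar RNAs or microRNAs, and many have no known role. They are often transcribed near protein-coding genes, in particular head to head from one promoter region, and Mediator bridges transcription factors and RNA polymerase II at promoters.

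The KO group held 3 RNA libraries of primary hepatocytes with the genotype Lcmr1f/f * albumin-cre, in which the albumin promoter drives the Cre recombinase in hepatocytes, and the control group held 3 RNA libraries of Lcmr1f/f hepatocytes without Cre. All cells were isolated from liver, cultured for 24 h and given 100 nM glucagon for 12 h, so no library shows cells without glucagon. Chromatin immunoprecipitation (ChIP) was sequenced in 1 KO and 1 control library of the same genotypes. No label says that the libraries of a group come from separate animals; p-values therefore reflect the spread among these libraries, which may be technical. The labels give no animal age.

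RNA libraries held 22191786 to 26595249 counts. Med19 itself had 2.91, 5.27 and 3.02 CPM in KO libraries, against 7.50, 10.8 and 13.4 CPM in control libraries (log2 fold change -1.50, edgeR quasi-likelihood adjusted p = 0.012), so the groups did not overlap. All 8 hepatocyte markers tested were lower in KO, with a summed level of 25920 to 35390 CPM in KO libraries, against 107600 to 110600 CPM in control libraries. Of 12 macrophage markers 10 were higher in KO (792.7 to 932.6 CPM summed in KO libraries, 381.9 to 461.5 CPM in control libraries), as were 1 of 6 endothelial, 1 of 7 stellate or fibroblast, 0 of 5 cholangiocyte and 0 of 4 tested lymphocyte markers, and no marker of these lists was at 0 in all libraries. Of the genes known to be higher in male mouse liver, 11 of 15 fell in KO, with a summed level of 1329 to 2131 CPM in KO libraries, against 7480 to 7905 CPM in control libraries. Of those known to be higher in female liver, 12 of 16 tested rose, with 267.7 to 381.6 CPM in KO libraries, against 46.25 to 100.2 CPM in control libraries. Beside these counts of markers and sex-biased genes, 12.6% of all genes tested were higher and 13% lower. The Y-linked gene Eif2s3y had 44.7, 53.6 and 54.5 CPM in KO libraries, against 42.0, 51.3 and 55.4 CPM in control libraries. Xist was at 0.431 CPM or less in every library. Of 4 sex-linked genes tested, Uty alone was called, as higher (log2 fold change 0.50, edgeR quasi-likelihood adjusted p = 0.04). Control replicate 1 stood apart: it was lower than both other controls by more than 2-fold in 29 members and higher than both by more than 2-fold in 9, while the same counts were 0 to 6 for the other 5 libraries. The part of these differences in the results on lincRNAs was not tested. In bulk RNA, fewer cells of a type and less RNA per cell cannot be told apart.

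Of the 137 expressed lincRNAs, 24 (17.5%) were higher and 21 (15.3%) were lower in KO than in control hepatocytes, and 92 did not pass the threshold (edgeR quasi-likelihood test, Benjamini-Hochberg adjusted p below 0.05 over 15135 genes tested). Over all genes tested, 12.6% were higher and 13% lower, and 25.5% passed in either direction. Among the 11066 protein-coding genes that met the same CPM rule, 13% were higher and 15% lower. The members' shares were thus near the background, and the CPM rule itself favoured members that differ. Of the 67 members that reached 2 CPM in all 6 libraries, 2 were higher (Malat1 and 4833418N02Rik) and 13 lower. Of the 28 that reached it in the KO libraries alone, 16 were higher and 0 lower, and of the 2 that reached it in the control libraries alone both were lower. Members that enter through 1 group had to differ, so neither count supports a direction. The rule used column totals, while the fit used scaling factors of 1.196 to 1.269 for KO and 0.7725 to 0.8375 for control libraries. A CPM of 2 in the rule is thus a lower scaled level in KO than in control. Entry was uneven between the groups, so 2 higher against 13 lower is not read as a direction either. The share of coding genes at 2 CPM in all 6 libraries was not counted. The libraries lie entirely apart, KO above control, in 40 members (29.2%, against 23.5% of all genes tested), and KO below control in 25 (18.2%, against 22.4%), while they overlap in 72. Median log2 fold change was -0.02 over members, 0.01 over all genes tested and -0.03 over the coding genes at the same rule.

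These counts depend on the scaling between libraries. With library size alone in place of trimmed-mean (TMM) factors, the log2 fold change of all genes tested moved up by a median of 0.59. Of the 137 members 52 were then higher and 9 lower, and of all 15135 genes tested 7711 were higher and 617 lower. Without control replicate 1, the library that stood apart, 29 were higher and 30 lower. Leaving out control replicate 3 left 15 members higher in KO. The lower members numbered 9 without KO replicate 1, 13 without KO replicate 2, 12 without KO replicate 3, and 13 without control replicate 2 or control replicate 3. Counts over all genes were not taken for the fits that left out 1 library.

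**Figure D1:**
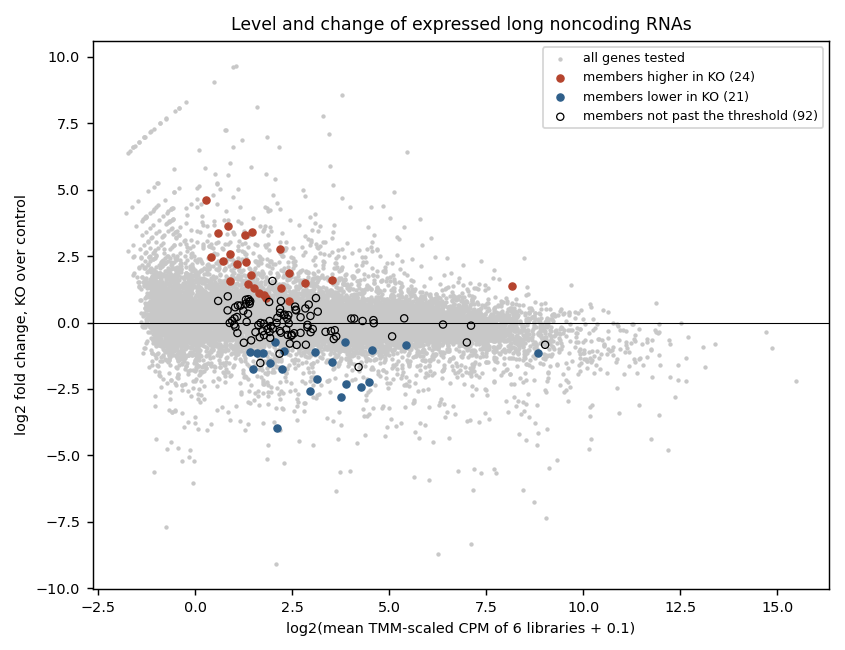
Each point is a gene, with the log2 of its mean TMM-scaled CPM over 6 libraries (plus 0.1) across and its log2 fold change, KO over control, up. Grey points are all 15135 genes tested, filled points the 24 members higher (red) and 21 lower (blue) in KO, and open points the 92 members not past the threshold, which lie mostly near 0.

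**Figure D2:**
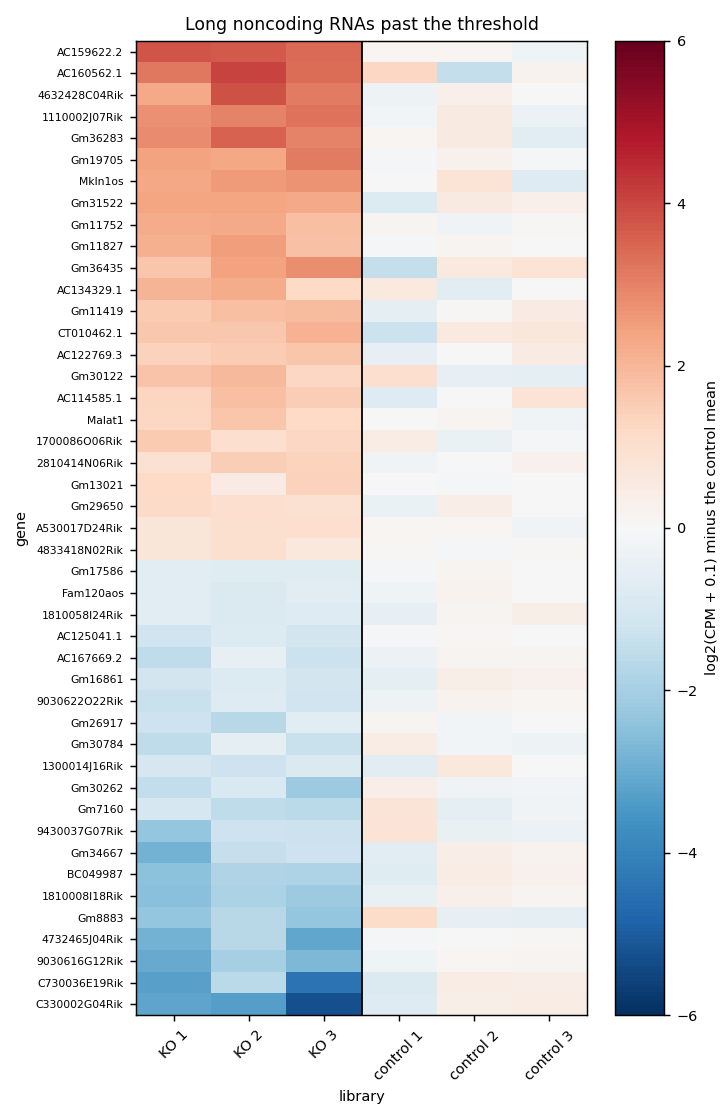
The 45 lincRNAs past the threshold (down) in each of the 6 libraries (across, KO left of control). Colour is log2(CPM + 0.1) minus the mean of the 3 control libraries, and no KO value of these members lies within its control range.

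Most members were rare. The mean was 10 CPM or less in 115 members in KO libraries and in 107 in control libraries, and the median of the members' means was 4.28 CPM in KO and 4.33 CPM in control. Together the members took 0.266 ± 0.0349% of all counts in KO libraries and 0.227 ± 0.0133% in control libraries (SD, n = 3 each). Malat1, Neat1, Gm26917, 2900097C17Rik and Gm42047, the 5 with the highest mean CPM, held 59.9 ± 4.46% of the members' counts in KO and 63.2 ± 4.49% in control. Counts scale with transcript length, which the table does not give, so the levels of different lincRNAs are not ranked.

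Malat1 and Neat1, the nuclear-body RNAs, lie on the same strand of chromosome 19 with 22035 bases between them (mm10, chr19:5795690-5802672 and chr19:5824708-5845478), and differed in what the test called. Malat1, the nuclear speckle RNA, had 379.8, 498 and 364 CPM in KO libraries, against 163, 179 and 135.5 CPM in control libraries. Every KO library lay above every control library, and the log2 fold change was 1.38 ± 0.17 (SE, edgeR quasi-likelihood adjusted p = 0.00157). Neat1, the scaffold of paraspeckles, had 271, 286 and 559 CPM in KO libraries, against 813, 623 and 557 CPM in control libraries. KO replicate 3 reached the control range, so the groups overlap, and the log2 fold change of -0.84 ± 0.30 did not pass (adjusted p = 0.0845). Without KO replicate 3 it was -1.27 with an adjusted p of 0.0106. Of 11 other settings, 9 left Neat1 uncalled. Its log2 fold change ran from -1.27 to -0.23 over them, and its adjusted p from 0.0106 to 0.548. The difference between the changes of these neighbours was not tested. Frmd8, a partner of the rhomboid protease machinery and the coding gene nearest to Neat1, had a log2 fold change of -0.01 and did not pass.

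Gm26917, on chr17:39843013-39846341, was lower in KO. It had 266, 196 and 400.2 CPM in KO libraries, against 714, 558.5 and 627 CPM in control libraries, with no overlap and a log2 fold change of -1.14 ± 0.25 (edgeR quasi-likelihood adjusted p = 0.0158). Its annotated end lies 12 bases before Rn18s-rs5, which RefSeq lists as a pseudogene and whose name marks it as related to ribosomal RNA. The part of ribosomal RNA reads in its counts was not tested. The call was lost without KO replicate 1 (log2 fold change -1.10, adjusted p = 0.0643) and with library size alone (-0.54, adjusted p = 0.114 in a range of 1.34e-04 to 0.114 over 11 settings). Without Gm26917, the members took 0.23 ± 0.0222% of counts in KO libraries and 0.176 ± 0.0163% in control libraries (SD, n = 3 each).

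2900097C17Rik, which RefSeq names Norad and which binds Pumilio proteins and guards chromosome stability, overlapped between the groups. It had 137, 144 and 116 CPM in KO libraries, against 141, 144 and 145.5 CPM in control libraries, and its log2 fold change of -0.12 ± 0.12 did not pass (edgeR adjusted p = 0.488). With library size alone it turned to 0.47 and passed (adjusted p = 0.0102). Gm42047, a lincRNA of no known role, was the most uneven of these 5 within groups. It had 128, 32.7 and 126 CPM in KO libraries, against 49.0, 182 and 251 CPM in control libraries. KO replicate 2 and control replicate 1 are low in it, the groups overlap, and its log2 fold change of -0.75 ± 0.75 did not pass (adjusted p = 0.502). Slc7a5, an amino acid transporter 39971 bases away, was higher in KO (14.7 ± 3.79 CPM in KO and 4.24 ± 0.697 CPM in control, log2 fold change 1.79, adjusted p = 0.00246), while Klhdc4, 3677 bases away on the other side, had a log2 fold change of -0.04 and did not pass.

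Host genes of small RNAs did not pass the threshold among the members. On the list of small nucleolar RNA hosts 4 were members. Epb41l4aos had 5.07, 5.11 and 3.803 CPM in KO libraries, against 8.13, 4.48 and 6.68 CPM in control libraries (log2 fold change -0.46, edgeR adjusted p = 0.228). Snhg6 (-0.40, adjusted p = 0.276), Snhg12 (-0.39, adjusted p = 0.292) and Snhg20 (0.15, adjusted p = 0.669) likewise overlapped between the groups. Over the whole list of such hosts, member or not, 18 were tested, 0 were higher and 4 lower in KO, beside 12.6% of all genes tested that were higher and 13% that were lower. The list's median log2 fold change was -0.46, against 0.01 over all genes tested. The 4 lower ones carry the biotype processed transcript and are no members: Gas5, which accumulates in growth-arrested cells, had 33.3, 33.3 and 25.5 CPM in KO libraries, against 56.0, 45.8 and 53.3 CPM in control libraries (-0.75, adjusted p = 0.00865). Snhg8 (-1.20), 1110038B12Rik (-1.14) and 2410006H16Rik (-0.60) were the others.

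Mir17hg, the precursor of the miR-17/92 cluster of growth-promoting microRNAs, had 2.94, 2.35 and 2.87 CPM in KO libraries, against 9.89, 3.29 and 5.22 CPM in control libraries. The groups did not overlap, but the log2 fold change of -1.17 ± 0.39 did not pass (edgeR adjusted p = 0.0609), and control replicate 1 held the highest value. With DESeq2 it passed at the same size (-1.19, adjusted p = 0.0163), as it did with no count filter and without control replicate 2. Without control replicate 1 the log2 fold change was -0.65 (adjusted p = 0.104), and with library size alone it was -0.56 (adjusted p = 0.223); over all 11 settings the adjusted p ran from 0.0163 to 0.223. In all, 6 members contain an annotated microRNA row and 3 a small nucleolar or similar RNA row, and none of these members was called. The list of microRNA hosts had 4 tested genes, 0 higher and 0 lower, with a median log2 fold change of -0.54. Among all genes tested 12.6% were higher and 13% lower.

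Jpx and Ftx, activators of Xist in the X-inactivation centre, did not change past the threshold. Jpx had 1.71, 1.62 and 1.93 CPM in KO libraries, against 1.02, 3.53 and 2.37 CPM in control libraries (log2 fold change -0.39, edgeR adjusted p = 0.519), and its sign turned to 0.05 without control replicate 2. Ftx had 2.71, 2.32 and 2.43 CPM in KO libraries, against 3.85, 2.62 and 3.12 CPM in control libraries (-0.36, adjusted p = 0.301). Of the list of imprinted and dosage RNAs 7 were tested, 1 was higher (Airn, 1.07) and 1 lower (Meg3, -1.22), neither of them a member, with a median of 0.33. These counts stood beside 12.6% higher and 13% lower over all genes tested. Pvt1, a lincRNA beside the oncogene Myc, had 1.84, 2.38 and 1.65 CPM in KO libraries, against 1.51, 1.62 and 1.13 CPM in control libraries, and its log2 fold change of 0.46 did not pass (adjusted p = 0.27). Myc, 47611 bases away, had 14.3, 15.1 and 11.6 CPM in KO libraries, against 183, 14.1 and 12.7 CPM in control libraries. It averaged 13.7 ± 1.84 CPM in KO and 69.9 ± 97.9 CPM in control (SD, n = 3 each) and did not pass (adjusted p = 0.185). Its control SD exceeds its control mean, since control replicate 1 alone lay above the KO range.

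**Figure D3:**
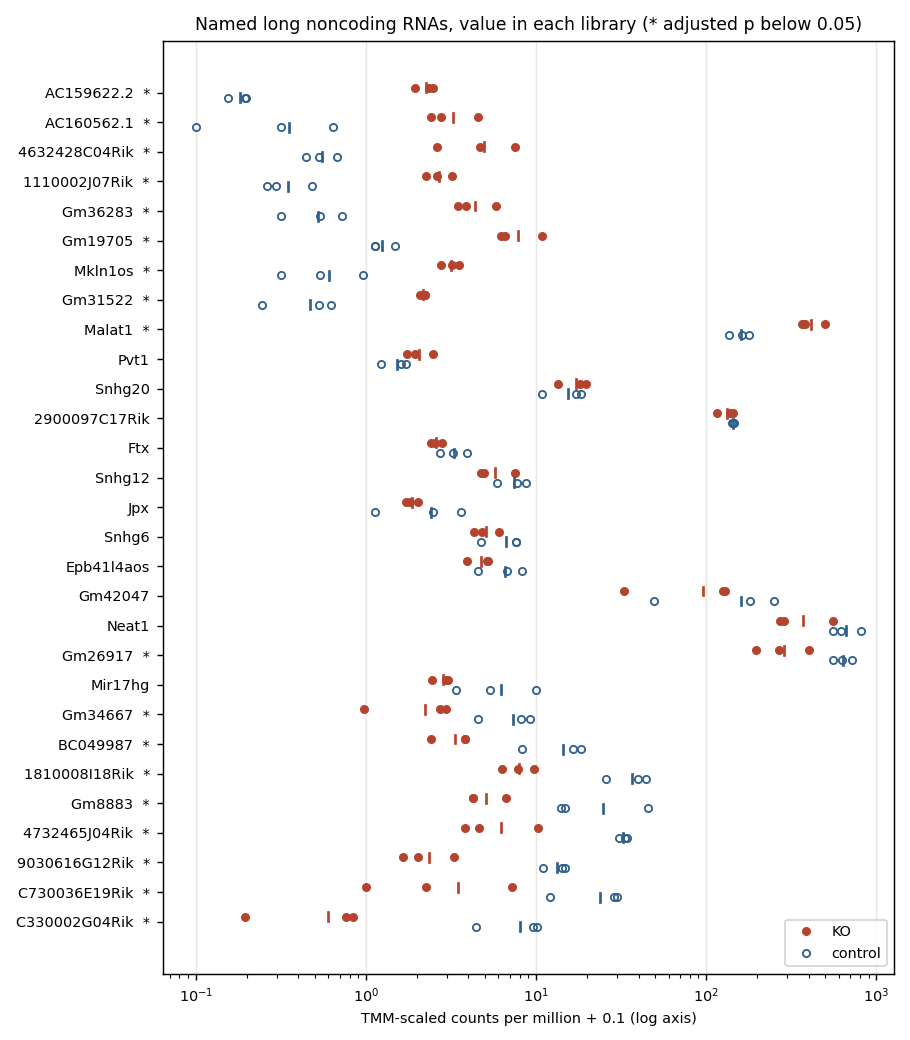
TMM-scaled CPM plus 0.1 on a log axis (across) of the lincRNAs described by name (down), KO as filled circles above control as open circles in each row, 1 circle per library, with a bar at each mean. An asterisk marks members past the threshold; the groups are separate in all of these, and overlap in Neat1, Gm42047, 2900097C17Rik, Jpx, Ftx, Epb41l4aos and the Snhg genes.

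The largest fall among the members was that of C330002G04Rik. This lincRNA, at chr19:23037390-23075853, had 0.743, 0.667 and 0.0935 CPM in KO libraries, against 4.33, 9.54 and 10.1 CPM in control libraries. No KO library reached 1 CPM, and the log2 fold change was -3.98 ± 0.64 (edgeR quasi-likelihood adjusted p = 0.00544). C330002G04Rik thus met the CPM rule through the control libraries alone, so the rule fixed its low KO level and its direction. The coding gene nearest to it, Trpm3, lies 47505 bases away, was at 0.108 CPM or less in every library and was not tested. On the other side the coding gene Klf9, a zinc-finger factor induced by glucocorticoids, lies 65372 bases away and was lower too (51.5 ± 9.56 CPM in KO and 100.9 ± 6.45 CPM in control, log2 fold change -0.97, adjusted p = 0.00428).

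C730036E19Rik had 2.16, 7.12 and 0.904 CPM in KO libraries, against 12.0, 29.9 and 28.8 CPM in control libraries (log2 fold change -2.79 ± 0.78, adjusted p = 0.046). KO replicate 2 was the highest of its group but under every control, and without it the log2 fold change was -3.95. This call was lost without any 1 of KO replicates 1 and 3 (adjusted p = 0.137 and 0.0663) or control replicates 1, 2 and 3 (0.0658, 0.11 and 0.118), and without the count filter (0.165), in a range of 0.00895 to 0.165 over 11 settings of the edgeR and DESeq2 fits. 9030616G12Rik had 1.55, 3.21 and 1.93 CPM in KO libraries, against 10.9, 14.2 and 14.6 CPM in control libraries (-2.56 ± 0.29, adjusted p = 0.00125). Its nearest coding gene Mettl7b, a thiol methyltransferase 10208 bases away, was also lower, with 299, 338 and 313 CPM in KO libraries, against 749, 709.5 and 796 CPM in control libraries (-1.25, adjusted p = 5.23e-04). Groups did not overlap for either gene.

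4732465J04Rik had 4.49, 10.1 and 3.71 CPM in KO libraries, against 30.5, 33.0 and 34.0 CPM in control libraries (log2 fold change -2.41 ± 0.37, edgeR adjusted p = 0.00507). 1810008I18Rik had 6.17, 9.56 and 7.70 CPM in KO libraries, against 25.8, 44.2 and 39.8 CPM in control libraries (-2.23 ± 0.25, adjusted p = 0.00112). Both kept every KO library below every control library, and without KO replicate 2 the log2 fold change of 4732465J04Rik was -3.00. Pcsk6, a proprotein convertase 55284 bases from 1810008I18Rik, was lower as well (-1.07, adjusted p = 0.0021). BC049987 had 2.33, 3.72 and 3.71 CPM in KO libraries, against 8.18, 18.3 and 16.3 CPM in control libraries (-2.13 ± 0.34, adjusted p = 0.00456). It lies head to head with Treh, the gene of trehalase, whose start is 995 bases from its own and whose log2 fold change of -0.42 did not pass (adjusted p = 0.4). Gm34667 had 0.872, 2.60 and 2.87 CPM in KO libraries, against 4.43, 9.06 and 8.08 CPM in control libraries (-1.76 ± 0.46, adjusted p = 0.0294), and was lost as a call without KO replicate 2 (0.0648), control replicate 2 (0.0871) or control replicate 3 (0.0806), and with library size alone (0.0667), in a range of 6.49e-04 to 0.0871.

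Gm8883, at chr1:71888112-71891204, had 4.17, 6.51 and 4.18 CPM in KO libraries, against 45.3, 14.7 and 13.9 CPM in control libraries. The groups did not overlap, control replicate 1 was about 3 times the other controls, and the log2 fold change was -2.31 ± 0.52 (edgeR adjusted p = 0.0206). Without control replicate 1 the log2 fold change was -1.53 (adjusted p = 0.00139). The call was lost without KO replicate 1 (0.0803), without KO replicate 3 (0.0753) and without the count filter (0.105), in a range of 2.41e-06 to 0.105 over 11 settings. Its nearest coding gene in the table is Fn1, the matrix protein fibronectin, 234911 bases away, with 1425, 1505 and 1206 CPM in KO libraries, against 3919, 2553 and 2385 CPM in control libraries (-1.10, adjusted p = 0.00788).

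The 8 members that rose most reached 2 CPM in the KO libraries alone, so the rule that chose them fixed their low control levels and their direction. AC159622.2, at chr12:15842758-15850625, had 74, 71 and 59 counts in KO libraries, against 2, 2 and 1 counts in control libraries (2.39, 2.25 and 1.84 CPM in KO, 0.0974, 0.0954 and 0.0539 CPM in control). The log2 fold change was 4.62 ± 0.40 (edgeR adjusted p = 5.07e-04), and the ratio of summed counts per scaled library size was 25.9 with a 95% exact interval of 10.9 to 80.7, which covers counting error only. AC160562.1 had 72, 140 and 85 counts in KO libraries, against 11, 0 and 4 counts in control libraries (3.63 ± 0.74, adjusted p = 0.0112). Its log2 fold change was 4.88 without control replicate 1 and 3.02 without control replicate 2. Its call was lost without control replicate 3 (adjusted p = 0.0506, the highest of a range from 8.49e-07 over 11 settings). Every KO library was above every control library in both.

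4632428C04Rik, at chr16:30008667-30021430, had 2.52, 7.43 and 4.58 CPM in KO libraries, against 0.341, 0.572 and 0.431 CPM in control libraries (log2 fold change 3.42 ± 0.48, edgeR adjusted p = 0.00274). The nearest coding gene is Hes1, a transcriptional repressor downstream of Notch, 42953 bases away, with 34.4, 30.0 and 15.96 CPM in KO libraries, against 12.3, 17.1 and 15.4 CPM in control libraries. Hes1 overlapped between the groups and did not pass (0.84, adjusted p = 0.0655). 1110002J07Rik had 2.16, 2.51 and 3.09 CPM in KO libraries, against 0.195, 0.381 and 0.162 CPM in control libraries (3.35 ± 0.39, adjusted p = 0.00136). Gm19705 had 6.43, 6.13 and 10.7 CPM in KO libraries, against 1.02, 1.38 and 1.02 CPM in control libraries (2.76 ± 0.31, adjusted p = 0.00112). All of these kept the groups apart.

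Gm36283 had 3.39, 5.69 and 3.77 CPM in KO libraries, against 0.438, 0.62 and 0.215 CPM in control libraries (log2 fold change 3.30 ± 0.41, edgeR adjusted p = 0.00171). It starts 3010 bases past the end of Pawr, a pro-apoptotic protein, on the same strand, and Pawr was higher with 23.9, 23.6 and 21.7 CPM in KO libraries, against 15.2, 15.8 and 14.7 CPM in control libraries (0.60, adjusted p = 0.00912). Gm31522 had 2.13, 2.13 and 1.96 CPM in KO libraries, against 0.146, 0.524 and 0.431 CPM in control libraries (2.48 ± 0.42, adjusted p = 0.00567). It overlaps a further member, Gm11419, by 3364 bases on the opposite strand. Both rose, and since no source used here gives the strand setting of the counting, their reads cannot be told apart.

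Mkln1os, at chr6:31366885-31398773, starts 38 bases from the start of Mkln1, the gene of muskelin, on the opposite strand. This lincRNA had 2.65, 3.11 and 3.40 CPM in KO libraries, against 0.438, 0.858 and 0.215 CPM in control libraries (log2 fold change 2.57 ± 0.43, edgeR adjusted p = 0.00563), and without control replicate 2 the log2 fold change was 3.18. Mkln1 had 47.7, 57.6 and 46.6 CPM in KO libraries, against 46.7, 61.1 and 60.0 CPM in control libraries, with overlapping groups (-0.14, adjusted p = 0.494). The difference between the changes was not tested.

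In all, 4 called members described by name had a ChIP region of the control library at their start and a promoter window in the RefSeq tables (GRCm38.p6, 300 bases that span the start). These windows were chosen for having both a change in RNA and a ChIP region, so their coincidence is not a result. The Mkln1os window also holds the start of Mkln1, which did not pass, and the region lies beside that start. Neither the region nor a motif there can be assigned to the lincRNA alone. Capitals mark CCAAT boxes (CCAAT, or ATTGG on the other strand) and GC boxes (GGGCGG, or CCGCCC). Gm8883 (chr1:71887862-71888161, plus strand) holds 1 CCAAT match, 4632428C04Rik (chr16:30008417-30008716, plus strand) 2, Mkln1os (chr6:31398724-31399023, minus strand) 1 GC box, and Malat1 (chr19:5802623-5802922, minus strand) no match to any motif searched.
Gm8883: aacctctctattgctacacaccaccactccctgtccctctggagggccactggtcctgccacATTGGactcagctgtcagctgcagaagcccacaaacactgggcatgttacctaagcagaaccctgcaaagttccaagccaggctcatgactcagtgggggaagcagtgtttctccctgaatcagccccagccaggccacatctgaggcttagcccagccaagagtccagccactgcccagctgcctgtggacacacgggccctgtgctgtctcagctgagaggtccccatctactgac
4632428C04Rik: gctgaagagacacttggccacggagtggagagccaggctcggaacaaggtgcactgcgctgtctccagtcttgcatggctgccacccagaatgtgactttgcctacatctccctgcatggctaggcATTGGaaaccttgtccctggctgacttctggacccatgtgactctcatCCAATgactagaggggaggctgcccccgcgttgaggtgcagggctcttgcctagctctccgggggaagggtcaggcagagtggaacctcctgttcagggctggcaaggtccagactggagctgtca
Mkln1os: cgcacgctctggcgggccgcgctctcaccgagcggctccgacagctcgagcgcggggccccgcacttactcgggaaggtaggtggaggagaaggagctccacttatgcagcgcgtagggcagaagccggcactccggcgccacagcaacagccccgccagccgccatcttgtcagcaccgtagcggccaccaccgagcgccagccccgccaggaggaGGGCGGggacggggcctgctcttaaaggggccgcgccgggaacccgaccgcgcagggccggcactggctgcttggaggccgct
Malat1: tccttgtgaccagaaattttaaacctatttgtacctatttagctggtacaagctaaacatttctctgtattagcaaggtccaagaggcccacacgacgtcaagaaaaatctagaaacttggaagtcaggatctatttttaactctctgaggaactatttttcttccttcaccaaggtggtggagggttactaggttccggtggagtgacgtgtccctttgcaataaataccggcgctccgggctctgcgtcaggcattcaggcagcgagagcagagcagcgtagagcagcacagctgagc

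The control ChIP region covered 175 of the 300 bases in Gm8883, 132 in 4632428C04Rik, 227 in Mkln1os and 226 in Malat1. Over the 81 members with a window among 32851 in the table, motifs were about as frequent as over all windows, on both strands and counting any overlap. TATAAA stood in 13.6% of members' windows and 13.6% of all, CCAAT in 40.7% and 37.4%, GGGCGG in 33.3% and 35.7%, CACGTG (E-box) in 9.88% and 7.15%, and TGACGTCA (cAMP response element) in 3.70% and 1.79%, which is 3 of the members. Median GC content was 52.7% in both sets. It was 58.8% in the 26 members' windows with a control ChIP region at the start and 50.7% in the 55 without.

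In the control ChIP library a smaller share of members than of coding genes had a region at the start, and in the KO library the shares were close. Sample titles name RNA poll III, while the series' design text names Lcmr1 as the target, so the antibody is left unnamed here. The KO list held 1649 regions and the control list 22793, 1 library each, so no difference was tested and a start without a region in the KO list cannot be read as a loss. A KO region lay within 1000 bases of the start in 4 of 137 members (2.92%), 244 of 11066 coding genes at the same CPM rule (2.2%) and 12 of 1731 lincRNAs below the rule (0.693%). A control region did so in 42 members (30.7%), 4255 coding genes (38.5%) and 158 lincRNAs below the rule (9.13%). By RNA call, the control region was present in 6 of 24 members higher in KO, 7 of 21 lower and 29 of 92 not past the threshold. In 20 of the 42 members the same region also lay at a coding gene's start.

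The 4 members with a region in both lists were Neat1, Malat1, Gm26608 and 5031425E22Rik. The authors' fold over background, their own value for each peak and not comparable between lists, was 11.8 in the KO list and 43.2 in the control list at Neat1, where the control region spans chr19:5814621-5845647 and so the whole gene. At Malat1 it was 5.46 in the KO list and 14.3 in the control list. Gm26608 starts 258 bases from Insig1, a regulator of cholesterol synthesis, on the opposite strand (4.57 in the KO list, 17.9 in the control list). 5031425E22Rik starts 172 bases from Kmt2e, a chromatin regulator (5.68 in the KO list, 8.22 in the control list). Neither of these RNAs passed the threshold (log2 fold change -0.01 and 0.06).

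**Figure D4:**
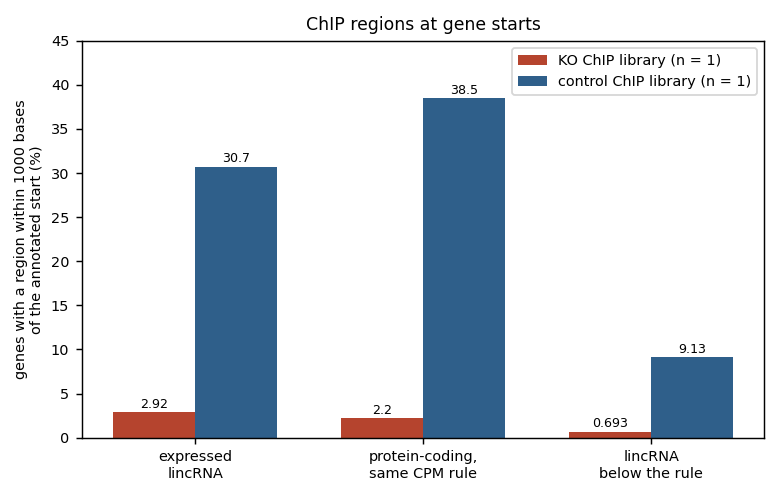
Percent of genes with a ChIP region within 1000 bases of the annotated start (up) for 3 gene sets (across), KO library left of the control library, 1 library each and so no error bars. Expressed lincRNAs reached 2.92% in KO and 30.7% in control, below the coding genes' 38.5% in control and above the 9.13% of lincRNAs below the rule.

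Many expressed lincRNAs lay near coding genes. The median gap to the nearest coding gene of the table was 5185 bases, 68 members had one within 5000 bases and 16 overlapped one. By arrangement 25 were divergent (opposite strands, starts within 1000 bases), 9 overlapped antisense, 2 overlapped on the same strand, 13 followed a coding gene on its strand within 5000 bases and 88 were separate. Of the 45 called members, 12 (26.7%) had a nearest coding gene called in the same direction, 1 in the opposite direction, 26 one that did not pass and 6 one that was not tested. For called coding genes at the same CPM rule, 502 of 3108 (16.2%) had their own nearest coding gene called in the same direction. The members' count was 5 without KO replicate 1, 6 without KO replicate 2, 7 without KO replicate 3, control replicate 2 or control replicate 3, and 18 without control replicate 1. With library size alone it was 38, where 52 members were called higher and 9 lower. The share of 16.2% belongs to the fit with TMM factors and all 6 libraries. No share of coding genes was taken for the other settings, so these counts have no background beside them.

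Most of the same-direction pairs were lower in KO, 9 of 12. Besides Mettl7b, Fn1 and Pcsk6 these were Zcchc2, Phlda1, Zfp36l1, Foxa2, Apob and Slc13a4. Phlda1, a pleckstrin-homology-like protein 90531 bases from Gm30262, had 12.0, 5.91 and 5.55 CPM in KO libraries, against 190, 77.1 and 72.4 CPM in control libraries. Gm30262 averaged 5.99 CPM in KO and 16.7 CPM in control (log2 fold change -1.48, edgeR adjusted p = 0.0169). Zfp36l1, an RNA-decay factor 2849 bases from 1300014J16Rik, had 62.5, 56.4 and 73.9 CPM in KO libraries, against 275, 217 and 196 CPM in control libraries. Both coding genes were highest in control replicate 1 and did not overlap between the groups.

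Foxa2, a liver transcription factor, ends 2673 bases before 9030622O22Rik starts, on the same strand. Foxa2 had 91.1, 54.7 and 60.9 CPM in KO libraries, against 103, 113 and 125.5 CPM in control libraries (log2 fold change -0.72, edgeR adjusted p = 0.0326), and the lincRNA averaged 5.33 CPM in KO and 11.6 CPM in control (-1.11, adjusted p = 0.0107). Apob, the structural protein of very-low-density lipoprotein, lies 27586 bases from AC125041.1, which averaged 15.4 CPM in KO and 31.4 CPM in control (-1.02, adjusted p = 0.0023). Apob itself had 2314, 2533 and 2324 CPM in KO libraries, against 4576, 3729 and 3752 CPM in control libraries (-0.75, adjusted p = 0.00513). The KO libraries were below the control libraries in all 4 genes.

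Gm7160 was the 1 divergent member called together with its partner, Zcchc2, whose start lies 124 bases away (log2 fold change -1.53 for Gm7160 and -1.40 for Zcchc2). 1810058I24Rik, which RefSeq annotates as protein-coding, was lower (30.8 CPM in KO and 54.8 CPM in control, -0.83, edgeR adjusted p = 0.0245) beside the sulphate transporter Slc13a4, which was at 1.24 CPM or less in every library. RefSeq lists 6 of the 102 members matched by symbol as protein-coding and 2 as pseudogenes, so the lincRNA biotype of the table does not hold for all members in RefSeq.

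The 3 same-direction pairs that were higher in KO were Gm36283 with Pawr, A530017D24Rik with Akap10 and Gm11752 with Tbc1d16. A530017D24Rik follows Akap10, an anchor of protein kinase A, on its strand after 3248 bases, and averaged 4.48 CPM in KO and 2.37 CPM in control (log2 fold change 0.92, edgeR adjusted p = 0.0221). Akap10 had 17.9, 17.5 and 15.3 CPM in KO libraries, against 11.4, 11.5 and 11.9 CPM in control libraries (0.54, adjusted p = 0.0214). Gm11752 lies within Tbc1d16, a Rab GTPase-activating protein, on the opposite strand (2.30 for Gm11752 and 0.52 for Tbc1d16), so without strand their reads cannot be told apart. All 3 called members that follow a coding gene on its strand, A530017D24Rik, Gm36283 and 9030622O22Rik, had that gene called in their direction. The opposite pair was AC122769.3, higher at 1.58, and the syntrophin gene Sntb1, lower at -0.57 with an adjusted p of 0.00934, 16452 bases away.

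Nearest is not the only neighbour. AC134329.1, which was higher in KO (8.17 CPM in KO and 2.25 CPM in control, log2 fold change 1.86, edgeR adjusted p = 0.0125), lies between Tspan31, a tetraspanin 110 bases away (0.45, adjusted p = 0.0559), and Agap2, a GTPase-activating protein 487 bases away that was higher (35.1 ± 5.86 CPM in KO and 6.38 ± 5.07 CPM in control, 2.46, adjusted p = 0.0182). Gm30784, lower at -1.15, lies 10158 bases from Slco1a4, whose log2 fold change had the other sign and did not pass (70.7 ± 19.7 CPM in KO and 47.2 ± 9.02 CPM in control, 0.58, adjusted p = 0.0893). On its other side, at 32061 bases, lies Slco1a1, an anion transporter known to be higher in male liver, which was lower by far more (6.29 ± 2.13 CPM in KO and 286 ± 108 CPM in control, -5.51, adjusted p = 5.54e-04). AC167669.2, lower at -1.07, lies 8365 bases from Smim13, which did not pass (-0.09, adjusted p = 0.609), and 15939 bases from Elovl2, a fatty acid elongase that was lower (369 ± 52.7 CPM in KO and 636 ± 28.0 CPM in control, -0.79, adjusted p = 0.0054).

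Across members with a tested nearest coding gene (n = 122), the log2 fold changes of the pair had a Pearson r of 0.28, and 69 pairs had the same sign. It was 0.60 over the 25 divergent pairs and 0.52 over the 24 without Gm7160 and Zcchc2, a pair left out after the values were seen. It was 0.49 over 13 members that follow a coding gene on its strand, 0.36 over 8 that overlap antisense, 0.24 over 74 separate members, and 0.23 over 9097 pairs of a coding gene and its nearest coding gene. These are descriptions over genes of the same 6 libraries, which share the scaling and the control libraries, and the values of r were not compared by a test. Of the 92 members not past the threshold, 7 had a nearest coding gene that was higher and 11 one that was lower.

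**Figure D5:**
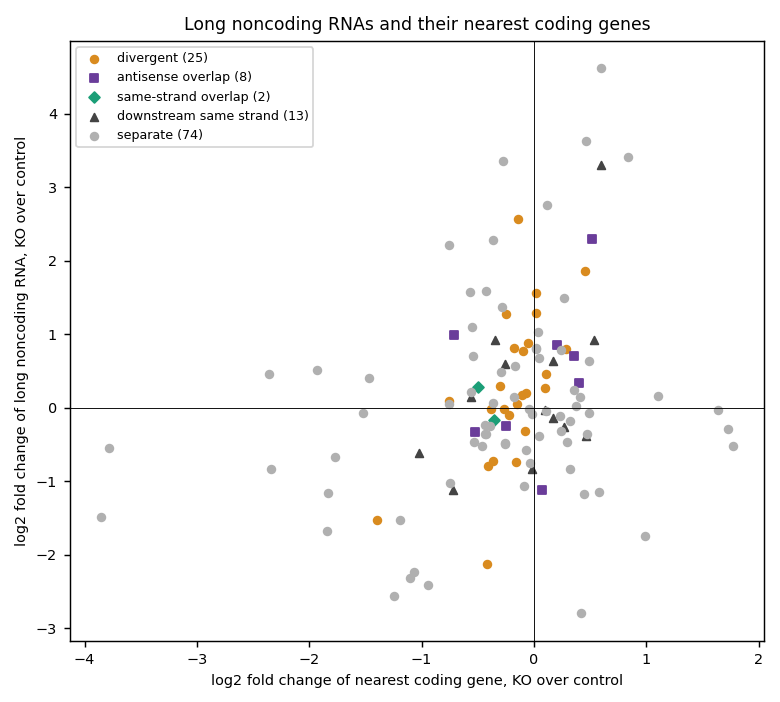
Log2 fold change, KO over control, of the nearest coding gene (across) and of the lincRNA (up) for the 122 members whose neighbour was tested, 1 symbol per arrangement. Divergent pairs lie close to the vertical axis, since their coding genes changed less than 1 log2 unit in all but Zcchc2.

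The authors' deposited table of the same comparison marks 43 members as significant. The share of all genes that it marks was not counted, so the 43 have no background beside them. Of the 43 members, 22 were called higher and 18 lower in the edgeR fit, and 3 were not called. The authors' deposited table lists Neat1 at an adjusted p of 0.0227 without a mark of significance.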

How the data were processed

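RNA was measured in 3 KO and 3 control libraries, and ChIP in 1 library of each. The deposited table holds counts per gene for each RNA library. HISAT2 2.1.0, Bowtie2 2.2.3 and HTSeq 0.6.0 and the build mm10 are named in the submitters' processing notes, and no source used here gives the counting's strand setting. The authors also deposited a mean normalised signal per gene, a fold change (ratio), its log2 value, and p-values with adjusted p-values. The authors' peak lists, 1 per library, hold a score, a fold over background and -log10 p and q values for each region, and MACS2 is among the tools named in the submitters' processing notes.

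Members are rows of biotype lincRNA or lncRNA at 2 CPM or more, by column total, in at least 3 of the 6 libraries. Members and gene lists were chosen with earlier results of these data known. Counts were fitted with edgeR 4.0.16 (R 4.3.3) over all genes kept by filterByExpr (minimum count 10, minimum total 15), with TMM factors, robust quasi-likelihood dispersion, genotype as the only term, and Benjamini-Hochberg adjustment over 15135 genes, at a threshold of 0.05. The SE printed with a log2 fold change is its absolute value divided by the square root of the quasi-likelihood F statistic. The fit was tested on simulated data. CPM printed per library are TMM-scaled; TMM factors were 1.216, 1.196 and 1.269 for KO and 0.7725, 0.8375 and 0.8372 for control libraries. The common biological coefficient of variation was 0.235. Coding neighbours and starts come from the table's positions. Replicates of 1 group differed by more than sampling noise (chi-square per degree of freedom at least 7.41).

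Named members are those of a list of characterised lncRNAs, the 8 strongest rises and 8 strongest falls by log2 fold change among called members with separate groups, the 5 with the highest mean CPM, and their coding neighbours within 5000 bases; other coding neighbours, Gm30262, Gm7160, AC134329.1 and other members of pairs were chosen after their values were seen. Alternatives were library size alone, upper-quartile factors, DESeq2 1.42.0, no count filter, a replicate block, leaving out each library, and stricter member, neighbour and region rules.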

Additional observations from a re-analysis of the deposited data

How the results depend on the processing

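Of 319 values of the 29 named members under 11 other settings each, 288 kept direction and side of the threshold, 16 lost the call, 7 gained it and 8 changed sign; 14 of the 29 members had no change of either kind. The sign changes were in members that did not pass with TMM factors: with library size alone Epb41l4aos (0.13), Snhg6 (0.19), Jpx (0.18), Snhg12 (0.205), Ftx (0.23) and 2900097C17Rik (0.47, which then passed as higher, adjusted p = 0.0102), and with 1 library left out Jpx (-0.755 to 0.048, with the sign change without control replicate 2) and Snhg20 (-0.058 without control replicate 1, to 0.289). Library size alone moved the median of all genes tested by 0.59 (log2), which its construction gives.

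Members higher in KO numbered 52 and lower 9 with library size alone, beside 7711 higher and 617 lower over all genes tested. Of these members 38 then had a nearest coding gene called in their direction. Leaving out 1 library gave 15 to 29 higher, 9 to 30 lower and 5 to 18 same-direction neighbours. At 5 CPM or more in at least 3 libraries (67 members) 8 were higher and 13 lower, and at 2 CPM in all 6 (67 members) 2 were higher and 13 lower, both with fewer members tested. Rules on column totals are uneven between the groups, so these counts show no direction. A control region overlapped the start itself in 25 members and reached -log10 q of 10 in 13. Upper-quartile factors, DESeq2 and no count filter gave 24, 27 and 22 higher and 18, 26 and 20 lower. Over all genes, upper-quartile factors gave 2276 higher and 1619 lower, and DESeq2 2123 higher and 2298 lower. Members at under about 2 CPM in a group rest on few counts.

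The replicate numbers are not stated to pair the libraries. Deviations of same-numbered libraries correlated at 0.11, 0.0521 and 0.0937, and each library correlated best with its own number, a hint from the data only. With the replicate block 24 members were higher and 18 lower (24 and 17 of those called without it), and 11 had a same-direction neighbour.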

Other observations

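Noncoding genes outside the rule changed too. Trp53cor1 (lincRNA-p21), a lincRNA induced by p53, stayed below the CPM rule with 13, 28 and 42 counts in KO libraries, against 0 counts in each of the 3 control libraries. Set against a floor of 3 counts over the control group it was at least 17.6-fold higher in KO (edgeR quasi-likelihood adjusted p = 0.00934). Tug1, a widely expressed RNA that the table lists as antisense RNA, had 51.5, 45.04 and 43.4 CPM in KO libraries, against 26.2, 20.5 and 23.7 CPM in control libraries (log2 fold change 0.99, adjusted p = 0.00231), and every KO library was above every control library. Other genes fell. On a mixed list of liver and metabolism genes 18 were tested, of which 1 was higher and 6 lower in KO, with a median log2 fold change of -0.32. These counts stood beside 12.6% higher and 13% lower over all genes tested. Gm10319, listed as a transcribed pseudogene, had 3.58, 6.73 and 3.68 CPM in KO libraries, against 22.8, 51.5 and 55.2 CPM in control libraries (-3.21, adjusted p = 0.00312). Gm32468, a lincRNA below the rule, had 1, 2 and 0 counts in KO libraries, against 16, 16 and 26 counts in control libraries (edgeR adjusted p = 0.00319).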
